A study of Mus musculus with 9 samples.

Results

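The genes of MHC class I and its peptide loading were followed in mouse brain after a local inflammatory challenge. The set held 10 genes, chosen by symbol: the heavy chain genes *H2-D1*, *H2-K1*, *H2-T23* and *H2-T10*, the light chain gene *B2m*, the peptide transporter genes *Tap1* and *Tap2*, the loading genes *Tapbp* and *Tapbpl*, and the transactivator gene *Nlrc5*. A gene was analysed through the probe set with the highest mean over all arrays among those that the platform annotation gives to its symbol alone. By this rule 7 of the 10 genes could be analysed, out of 17097 genes in all, whereas *B2m*, *Tap1* and *Tap2* had no probe set named for them alone in the annotation used and are not analysed here. A further 5 probe sets carry the symbol of a member together with other symbols and are not named here.

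Adult male C57Bl/6J mice, 10 to 12 weeks old, received a stereotaxic injection of lipopolysaccharide (LPS, a bacterial cell wall component that activates TLR4) or of PBS into the striatum. The groups were LPS 4 d, LPS 1 d and PBS, named by the agent and the time of collection, and the PBS brains were collected at 4 d, so that no PBS group matched the 1 d time. After perfusion with saline, tissue on the injected side was taken and RNA of 3 mice was pooled for each array, with 3 arrays per group and 9 in all. The values are log2 expression from Affymetrix arrays, normalised between arrays, so a difference of 1 is a doubling. No count of reads lies behind them, and the number of arrays limits the precision. Background was set by 23 nonspecific control probe sets, the brightest of which averaged 3.49, and a group whose mean did not exceed that level was called at background.

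Almost every nucleated cell displays peptides from its own proteins on MHC class I, where CD8+ T cells and natural killer (NK) cells read them. Immunoproteasomes cut the peptides, the TAP transporter carries them into the endoplasmic reticulum, and tapasin holds the empty heavy chain beside TAP until a peptide is bound. Interferons raise the transcription of the whole pathway through interferon regulatory factors, STAT proteins and NLRC5, and NF-κB acts on the heavy chain promoters. Neurons in the healthy brain show little class I, while microglia and endothelial cells can raise it. Because the samples were homogenates, a change in the number of cells of a type cannot be told apart from a change in RNA per cell.

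*H2-D1* and *H2-K1* encode the classical heavy chains of this strain, which present peptides to CD8+ T cells. Both exceeded their PBS level more than 4-fold in each LPS group, with no called difference between the 2 times. To compare the genes by sequence, promoter windows of 250 bases before to 50 bases after the annotated transcription start are shown for genes whose patterns differed, as RefSeq gives them for build GRCm38.p6. *H2-D1* lies on the plus strand (chr17:35262844-35263143) and *H2-K1* on the minus strand (chr17:34000284-34000583, the second of its 2 windows). Capitals mark the κB forms, which run into each other, then TGACG (a core of the X2 box) and CCAAT (the Y box, ATTGG where it stands on the reverse strand).
*H2-D1*: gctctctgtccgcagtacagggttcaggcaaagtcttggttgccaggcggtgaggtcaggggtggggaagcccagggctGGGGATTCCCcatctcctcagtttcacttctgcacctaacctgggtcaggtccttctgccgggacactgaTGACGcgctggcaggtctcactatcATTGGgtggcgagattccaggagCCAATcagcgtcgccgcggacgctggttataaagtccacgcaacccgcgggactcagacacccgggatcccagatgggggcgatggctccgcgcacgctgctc
*H2-K1*: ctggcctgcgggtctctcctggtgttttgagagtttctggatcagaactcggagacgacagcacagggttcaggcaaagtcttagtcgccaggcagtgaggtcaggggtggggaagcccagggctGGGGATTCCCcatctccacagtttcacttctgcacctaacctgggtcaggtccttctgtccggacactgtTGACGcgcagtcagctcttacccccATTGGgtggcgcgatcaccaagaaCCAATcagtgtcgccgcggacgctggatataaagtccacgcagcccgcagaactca
These 2 windows hold the same motifs in the same order and orientation. From the first base of GGGATTCCC to that of TGACG there are 69 bases in both, and from there to the reverse Y box 25 bases in both, followed by a forward Y box 23 bases further on in *H2-D1* and 24 in *H2-K1*. Over all 32851 promoter windows of the RefSeq table, on either strand, GGGNNTTCC was found in 5.82%, GGGATTCCC in 0.353%, TGACG in 20.8% and CCAAT in 37.4%. The last 3 occurred together in 9 windows of 8 genes, or 0.0274%, and both windows of *H2-K1* and that of *H2-D1* are among them. This combination is one that the windows of these close paralogs hold, so its share is a description and no test. A match describes the letters of a window and does not show that a factor binds there.

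**Figure D1:**
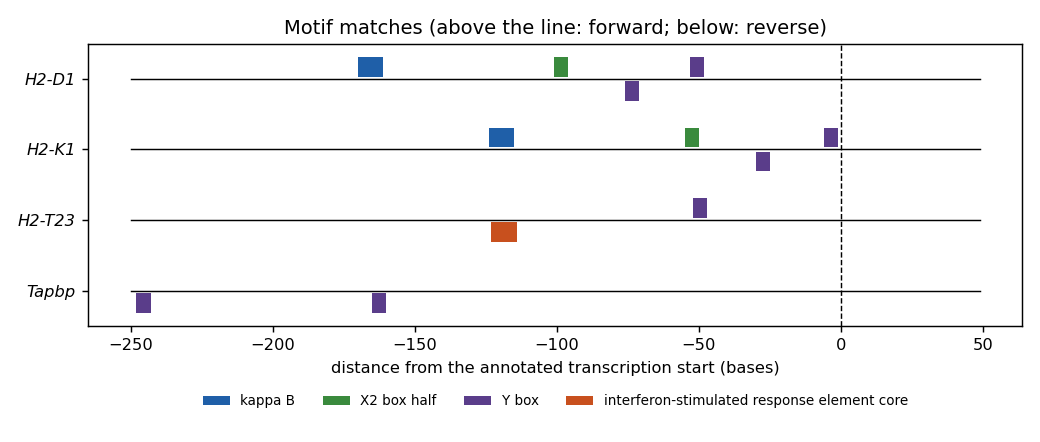
Motif matches in the promoter windows of *H2-D1*, *H2-K1*, *H2-T23* and *Tapbp*, by distance in bases from the annotated transcription start (dashed line). Bars above a line are on the strand of the gene and bars below on the other. The κB, X2 and Y box matches of *H2-D1* and *H2-K1* have nearly the same spacing, *H2-T23* holds an interferon response core and 1 Y box, and *Tapbp* holds 2 reverse Y boxes. Other forms of the interferon response core were not searched and are not drawn.

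*H2-D1* read 9.56, 9.36 and 9.55 in the LPS 4 d arrays, 9.36, 9.74 and 9.62 in the LPS 1 d arrays and 7.14, 7.28 and 7.36 in the PBS arrays (log2 expression). Every LPS array was higher than every PBS array, and the arrays of the 2 LPS groups overlapped. The log2 difference from PBS was 2.23 at 4 d (standard error 0.12, 4.70-fold, limma adjusted p = 1.16e-05) and 2.32 at 1 d (standard error 0.12, 4.98-fold, limma adjusted p = 9.37e-06). Between LPS 4 d and LPS 1 d the difference was -0.08, with a 95% interval from -0.35 to 0.18 and a limma adjusted p of 0.825. A fall by more than 0.35 or a further rise by more than 0.18 therefore lies outside the interval.

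*H2-K1* read 9.85, 9.67 and 9.67 in the LPS 4 d arrays, 9.72, 10.06 and 9.98 in the LPS 1 d arrays and 7.54, 7.69 and 7.65 in the PBS arrays. Its log2 difference from PBS was 2.11 at 4 d (standard error 0.11, 4.31-fold, limma adjusted p = 1.08e-05) and 2.30 at 1 d (standard error 0.11, 4.91-fold, limma adjusted p = 7.37e-06). The LPS groups overlapped, and LPS 4 d minus LPS 1 d was -0.19 with an interval from -0.43 to 0.05 (limma adjusted p = 0.509). The pair ran in parallel over the 9 arrays (Pearson r = 0.998), a value that describes arrays sharing 3 groups. Heavy chain genes are close paralogs, and how far the probes of one bind RNA of the other was not tested.

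**Figure D2:**
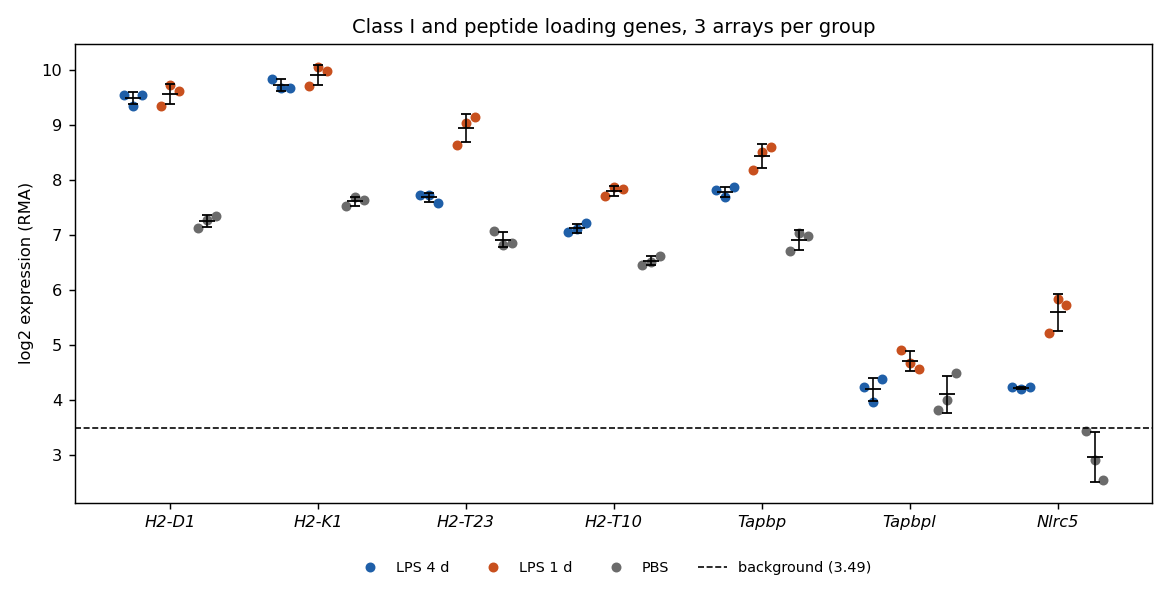
Log2 expression of the 7 analysed genes in each array (points), with the mean and SD of 3 arrays per group (black). The LPS 4 d and LPS 1 d arrays of *H2-D1* and *H2-K1* overlap far above PBS, whereas for *H2-T23*, *H2-T10*, *Tapbp* and *Nlrc5* the LPS 4 d arrays lie between LPS 1 d and PBS.

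The 2 non-classical heavy chain genes were also higher after LPS, but lower at 4 d than at 1 d. *H2-T23* encodes the heavy chain of Qa-1, which displays leader peptides of other class I chains to CD94/NKG2 receptors of NK cells. It read 7.74, 7.73 and 7.59 in the LPS 4 d arrays, 8.65, 9.05 and 9.16 in the LPS 1 d arrays and 7.08, 6.83 and 6.86 in the PBS arrays, and no 2 of the groups overlapped. The difference from PBS was 0.77 at 4 d (standard error 0.14, 1.70-fold, limma adjusted p = 0.014) and 2.03 at 1 d (standard error 0.14, 4.09-fold, limma adjusted p = 3.73e-05). LPS 4 d minus LPS 1 d was -1.27 (standard error 0.14, 95% interval -1.57 to -0.96, limma adjusted p = 0.00156), or 2.41-fold lower. The difference from PBS at 4 d missed the adjusted threshold without LPS 4 d replicate 1 (0.74, limma adjusted p = 0.0594), PBS replicate 2 (0.72, limma adjusted p = 0.0614) or PBS replicate 3 (0.73, limma adjusted p = 0.0612).

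The promoter window of *H2-T23* (minus strand, chr17:36032652-36032951, GRCm38.p6) is shown because this gene was called between the 2 times where the classical pair was not. Capitals mark the interferon-stimulated response element core GAAANNGAA, which stands on the reverse strand and begins 123 bases before the start, and a forward Y box.
*H2-T23*: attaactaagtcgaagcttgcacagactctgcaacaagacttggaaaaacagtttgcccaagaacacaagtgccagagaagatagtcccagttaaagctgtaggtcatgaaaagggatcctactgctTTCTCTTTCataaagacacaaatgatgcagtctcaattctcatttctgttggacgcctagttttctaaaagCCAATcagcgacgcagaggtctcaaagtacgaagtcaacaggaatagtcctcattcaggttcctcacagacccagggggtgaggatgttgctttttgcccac
This core was found in 8.56% of all windows and TTCNNNGAA, the core of the interferon-γ activated site, in 8.30%. The windows of *H2-D1* and *H2-K1* hold neither in these exact letters, and that of *H2-T23* holds no κB form and no TGACG. Both classical windows hold agtttcacttct after the κB forms, a stretch that the letters searched do not match. Other forms of the interferon response core were not searched. The search therefore does not show that the classical pair lacks an interferon response element.

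*H2-T10*, which RefSeq lists as a transcribed pseudogene and which is related to *H2-T22*, whose protein γδ T cells recognise, read 7.06, 7.11 and 7.22 at LPS 4 d, 7.71, 7.88 and 7.84 at LPS 1 d and 6.47, 6.52 and 6.63 after PBS. The 3 groups did not overlap. It was 0.59 higher than PBS at 4 d (standard error 0.09, limma adjusted p = 0.00483) and 1.27 higher at 1 d (standard error 0.09, limma adjusted p = 3.83e-05). From LPS 1 d, LPS 4 d differed by -0.68 (standard error 0.09, limma adjusted p = 0.00344). Its fold change over PBS at 4 d was 1.5, at the required fold itself, so the call rests on the placing of that threshold. It was lost, with the adjusted p still under 0.05, without LPS 4 d replicate 3 (0.54), PBS replicate 1 (0.55) or PBS replicate 2 (0.58).

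*Tapbp* encodes tapasin, which joins the heavy chain to the TAP transporter and favours peptides that bind tightly. It read 7.82, 7.70 and 7.87 in the LPS 4 d arrays, 8.18, 8.52 and 8.60 in the LPS 1 d arrays and 6.71, 7.05 and 6.98 in the PBS arrays. The groups were ordered as for *H2-T23* and did not overlap. The difference from PBS was 0.88 at 4 d (standard error 0.13, 1.84-fold, limma adjusted p = 0.00568) and 1.52 at 1 d (standard error 0.13, 2.87-fold, limma adjusted p = 0.000163). LPS 4 d minus LPS 1 d was -0.64 (95% interval -0.94 to -0.34, limma adjusted p = 0.0399). This last call was the weakest of the set: without any one of 7 of the 9 arrays, that is all but LPS 1 d replicate 1 and PBS replicate 1, the difference stayed between -0.68 and -0.56 while the adjusted p lay above 0.05.

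The window of *Tapbp* (plus strand, chr17:33919228-33919527, GRCm38.p6) is shown as that of a loading gene with the same order of groups as *H2-T23*. Capitals mark its only matches among the motifs searched, 2 Y boxes on the reverse strand that begin 248 and 165 bases before the start.
*Tapbp*: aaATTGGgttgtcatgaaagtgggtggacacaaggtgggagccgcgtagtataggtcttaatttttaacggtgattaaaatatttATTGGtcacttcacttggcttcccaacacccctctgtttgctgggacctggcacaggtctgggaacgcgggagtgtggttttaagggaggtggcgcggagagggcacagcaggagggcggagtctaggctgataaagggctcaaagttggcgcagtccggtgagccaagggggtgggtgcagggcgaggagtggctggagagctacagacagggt
The motifs that *H2-T23* and *Tapbp* share here come down to the Y box, which 37.4% of all windows hold. Of the other members, windows were given for *B2m* and *Tap1*.

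*Tapbpl* encodes TAPBPR, a second peptide editor that works apart from TAP. It read 4.25, 3.97 and 4.39 at LPS 4 d, 4.91, 4.68 and 4.57 at LPS 1 d and 3.83, 4.00 and 4.5 after PBS, close to background throughout. The LPS 4 d and PBS arrays overlapped, while each LPS 1 d array lay above all arrays of the other groups. The differences were 0.09 for LPS 4 d against PBS (95% interval -0.32 to 0.5, limma adjusted p = 0.847), 0.61 for LPS 1 d against PBS (0.20 to 1.02, limma adjusted p = 0.125) and -0.52 for LPS 4 d against LPS 1 d (-0.93 to -0.11, limma adjusted p = 0.248). None passed the test. Without PBS replicate 3 the 1 d difference was 0.80 and passed (limma adjusted p = 0.0338), and the 4 d difference was -0.05 without PBS replicate 1.

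*Nlrc5* encodes the transactivator that assembles on the X and Y boxes of class I promoters. It read 4.25, 4.21 and 4.25 at LPS 4 d, 5.22, 5.84 and 5.74 at LPS 1 d and 3.44, 2.92 and 2.55 after PBS. Every LPS array was above background and every PBS array under it, and the 3 groups did not overlap. Against the background level it was at least 1.67-fold higher at 4 d and at least 4.33-fold higher at 1 d, and the fitted log2 differences from PBS were 1.27 (standard error 0.22, limma adjusted p = 0.014) and 2.64 (standard error 0.22, limma adjusted p = 0.000148). LPS 4 d minus LPS 1 d was -1.37 (95% interval -1.88 to -0.86, limma adjusted p = 0.0137), both groups being above background. The call between the 2 times was lost without replicate 1 (-1.38, limma adjusted p = 0.0538) or 3 (-1.38, 0.054) of LPS 4 d, and without replicate 2 (-1.25, 0.0632) or 3 (-1.30, 0.0584) of LPS 1 d. That against PBS at 4 d was lost without replicate 1 (1.26, limma adjusted p = 0.0563) or 3 (1.26, 0.0525) of LPS 4 d, and without PBS replicate 2 (1.24, 0.0569).

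A gene was called where the adjusted p was under 0.05, with p values adjusted over all 45037 probe sets, and the fold change at least 1.5. In LPS 4 d against PBS, 6 of the 7 analysed genes were called higher and 0 lower, where 4.21% of all genes were called higher and 0.205% lower. In LPS 1 d against PBS the same 6 were higher and 0 lower, where 3.86% of all genes were higher and 0.532% lower. In LPS 4 d against LPS 1 d, 4 of 7 (*H2-T23*, *H2-T10*, *Tapbp* and *Nlrc5*) were lower and 0 higher, where 1.37% of all genes were lower and 1.84% higher. The median log2 difference over the 7 genes was 0.88, 2.03 and -0.64 in these comparisons, and over all genes it was -0.02, -0.03 and 0.00. The arrays of LPS 4 d lay wholly above those of PBS for 6 of 7 genes (12.0% of all genes), those of LPS 1 d wholly above PBS for 7 of 7 (11.5%), and those of LPS 4 d wholly below LPS 1 d for 5 of 7 (9.76%). In the F-test across the 3 groups 6 of 7 passed, *Tapbpl* not (limma adjusted p = 0.162), where 7.67% of all genes did. The count at 4 d against PBS was 3 without PBS replicate 2, and that between the 2 times was 2 without LPS 4 d replicate 1 or 3, or without LPS 1 d replicate 2 or 3. Without PBS replicate 3, 7 genes were higher at 1 d.

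**Figure D3:**
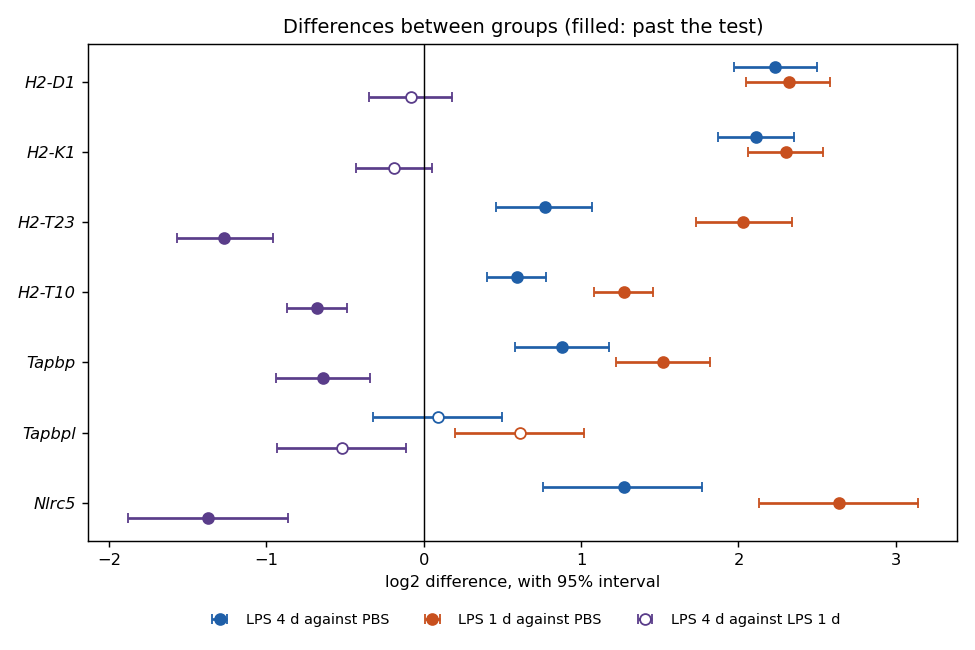
Log2 differences between groups for the 7 analysed genes, with 95% intervals from the limma fit. Filled points passed the test, and open points did not. The differences of *H2-D1* and *H2-K1* between LPS 4 d and LPS 1 d are open and their intervals hold 0, while those of *H2-T23*, *H2-T10*, *Tapbp* and *Nlrc5* lie below 0.

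The share of the 1 d log2 difference from PBS that was still seen at 4 d set the classical heavy chains beside the rest. It was 96.4% for *H2-D1* and 91.8% for *H2-K1*, against 57.8% for *Tapbp*, 48.0% for *Nlrc5*, 46.4% for *H2-T10* and 37.7% for *H2-T23*. Both differences behind a share use the same 3 PBS arrays, and the share is given without a test. Subtracting the change of *H2-D1* or *H2-K1* between LPS 4 d and LPS 1 d from that of each of these 4 genes gave 8 log2 differences between -1.29 and -0.45. An exact two-sided permutation test gave p = 0.1 for each of the 8, the smallest that 3 against 3 arrays allow, and the pairs were formed after the values had been seen. Over the 9 arrays, Pearson r lay between 0.944 and 0.982 among *H2-T23*, *H2-T10*, *Tapbp* and *Nlrc5*, between 0.796 and 0.926 for these genes with the classical pair, and between 0.523 and 0.771 for *Tapbpl* with the others. The arrays share their groups and pools, so these values are a description.

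The analysed genes had 17 probe sets of their own, of which 11 were above background in at least 1 group and 6 in none. For *H2-K1*, 2 further probe sets above background moved like the brightest: one was 1.83 higher than PBS at LPS 4 d and 2.09 at LPS 1 d, the other 1.96 and 2.32, with -0.26 and -0.36 between LPS 4 d and LPS 1 d. For *H2-D1* the 4 other probe sets were at background in every group, though one of them still passed the test at both times. *H2-D1* thus rested on 1 probe set, and the mean over its 5 probe sets was 0.74 higher than PBS at 4 d and 0.80 at 1 d. The second probe set of *Tapbp* differed by 0.62 at 4 d and 0.67 at 1 d from PBS and by -0.05 between the LPS groups, none of them called. The second probe set of *H2-T23* exceeded background at LPS 1 d alone and was not called in any comparison. The brightest probe sets of *H2-D1*, *H2-K1* and *H2-T10* bear the suffix _x_at or _s_at, which the maker gives to probe sets with probes shared by several transcripts.

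**Figure D4:**
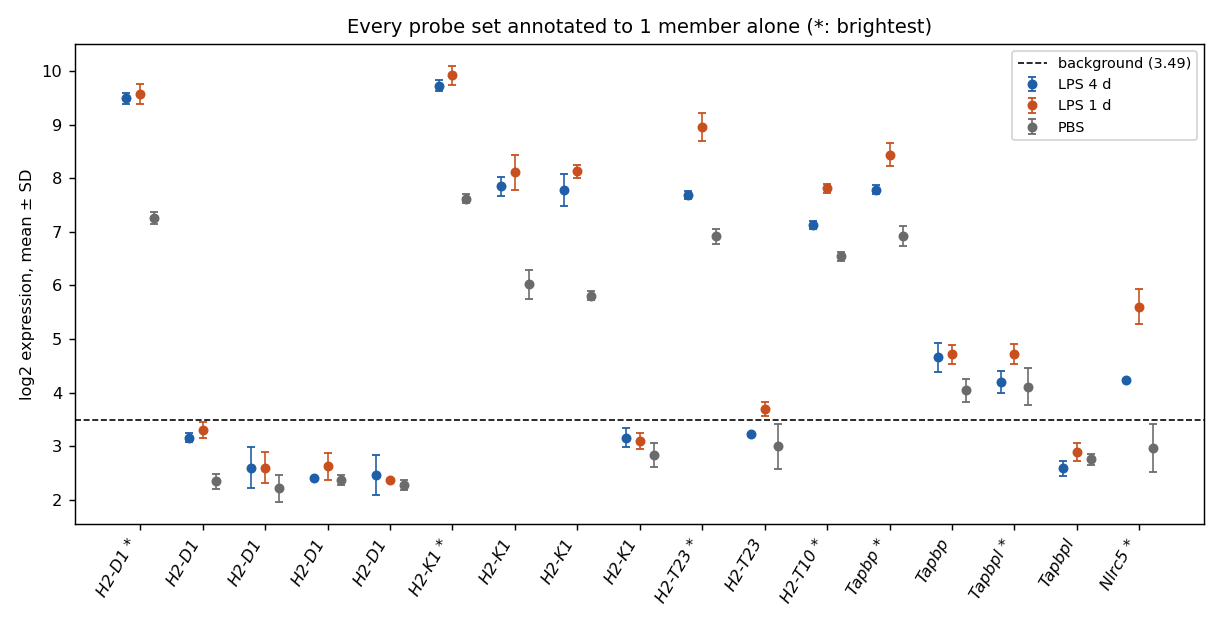
Mean log2 expression and SD (3 arrays per group) of each of the 17 probe sets annotated to one analysed gene alone, with the brightest of each gene marked by an asterisk. The 3 bright *H2-K1* probe sets give the same order of groups, and 4 of the 5 *H2-D1* probe sets lie under the background line.

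Of 24 listed genes that supply peptides or fold the heavy chain, 23 were analysed; 4 were higher at 4 d and 6 at 1 d against PBS, 0 were lower, and 0 were called between the 2 times. The largest differences were in the interferon-inducible immunoproteasome subunits. *Psmb8* read 6.73 ± 0.14 at LPS 4 d, 7.62 ± 0.30 at LPS 1 d and 4.42 ± 0.44 after PBS (SD, n = 3 arrays each), differences from PBS of 2.31 (limma adjusted p = 0.000428) and 3.20 (4.69e-05). *Psmb9* was 1.67 higher at 4 d and 1.97 at 1 d (limma adjusted p = 0.00293 and 0.000917). The proteasome activator genes *Psme1* (0.64 and 1.06) and *Psme2* (0.64 and 1.03) were also higher at both times, with limma adjusted p of at most 0.0107. The median over the 23 genes was 0.07 at 4 d and 0.12 at 1 d.

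Of 25 listed regulators of class I transcription, 23 were analysed; 4 were higher at 4 d and 4 at 1 d against PBS, and between LPS 4 d and LPS 1 d 1 was higher and 3 were lower. *Irf1* and *Irf9*, transcription factors of the interferon response, followed *Nlrc5* in that they were higher at both times and lower at 4 d than at 1 d. *Irf9* read 6.11 ± 0.09 at LPS 4 d, 7.22 ± 0.14 at LPS 1 d and 5.26 ± 0.25 after PBS (SD, n = 3 arrays each), and LPS 4 d minus LPS 1 d was -1.10 (limma adjusted p = 0.00288). For *Irf1* the differences were 0.96 at 4 d, 1.63 at 1 d and -0.67 between them (limma adjusted p = 0.0286 for the last). *Stat2*, the partner of IRF9, was called at 1 d (1.41) and between the times (-0.97, limma adjusted p = 0.00156) but not at 4 d (0.44, limma adjusted p = 0.0514). The receptor genes differed from this order: *Ifngr1* was 0.69 higher than PBS at 4 d and 0.06 at 1 d (limma adjusted p = 0.0114 and 0.868), and 0.63 higher at LPS 4 d than at LPS 1 d (0.0251), while *Ifnar2* was higher at both times (0.73 and 0.63). The interferon genes *Ifng* and *Ifnb1*, and *Ciita* and *Socs1*, were at background in all 3 groups.

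The products of MHC class II genes present peptides taken up from outside the cell. The class II genes called between the times had the order opposite to that of *H2-T23*, *H2-T10*, *Tapbp* and *Nlrc5*. Of 12 class II genes analysed, 9 were higher at 4 d and 3 at 1 d against PBS, and 7 were higher at LPS 4 d than at LPS 1 d. The median difference was 1.40 at 4 d, 0.28 at 1 d and 1.18 between them. The count at 1 d was 1 without LPS 1 d replicate 2 or 3 or PBS replicate 1, and that between the times 4 without replicate 1 of LPS 4 d or replicate 2 of LPS 1 d. The chain gene *H2-Aa* read 6.94 ± 0.20 at LPS 4 d, 5.0 ± 0.10 at LPS 1 d and 4.29 ± 0.22 after PBS (SD, n = 3 arrays each), and was 1.94 higher at LPS 4 d than at LPS 1 d (limma adjusted p = 0.000293). *H2-Eb1* and *H2-Ab1*, chain genes as well, were 2.33 and 1.41 higher in that comparison (limma adjusted p = 0.00111 and 0.0135), with differences from PBS at 1 d of 0.12 and 0.91 that did not pass. *Cd74*, the invariant chain gene, was 1.18 and *Ifi30*, a lysosomal thiol reductase gene, 1.27 higher at LPS 4 d than at LPS 1 d (limma adjusted p = 0.00435 and 0.0161).

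**Figure D5:**
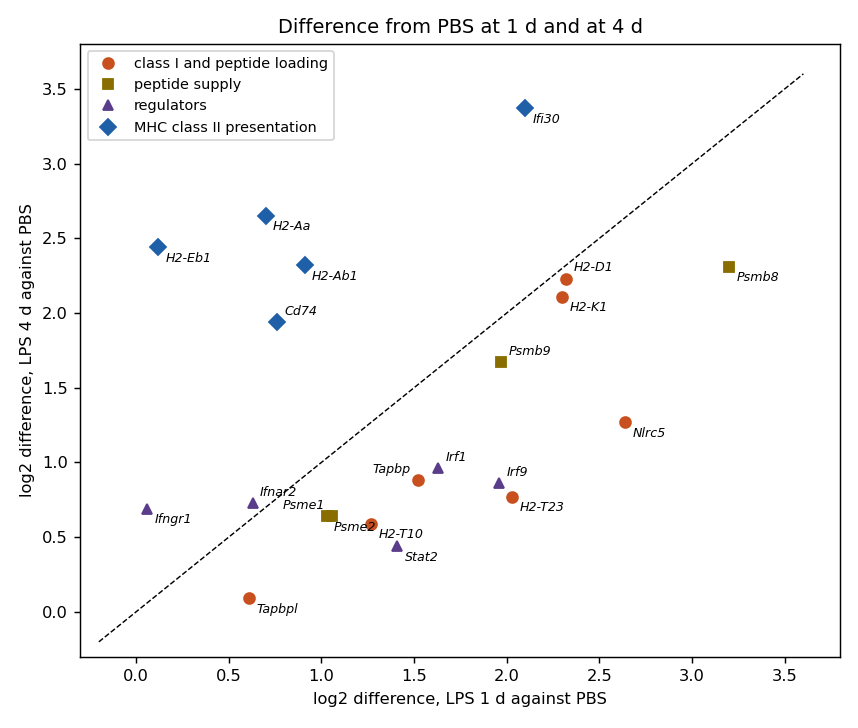
Log2 difference from PBS at 1 d (horizontal) and at 4 d (vertical) for the analysed class I and loading genes and the named genes of 3 further lists; both axes use the same 3 PBS arrays, and points on the dashed line differ equally at both times. *H2-D1* and *H2-K1* lie near the line, *H2-T23*, *Nlrc5* and *Irf9* below it, and the class II genes above it.

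Of 29 other class I and class I-like genes, 15 were analysed and 10 of these were at background in all groups. *Hfe*, a class I-like regulator of iron uptake, was 1.71 higher than PBS at 4 d and 0.78 at 1 d, and 0.93 higher at LPS 4 d than at LPS 1 d (limma adjusted p = 0.00886). *H2-Q4* was called at 1 d against PBS (limma adjusted p = 0.00967), and LPS 1 d was its only group above background, while *H2-M3*, which presents formylated peptides, was called at 4 d against PBS (0.61, limma adjusted p = 0.0297). *Fcgrt*, the neonatal Fc receptor gene, was 0.97 higher at LPS 4 d than at LPS 1 d (limma adjusted p = 0.00542) and differed from PBS by 0.40 and -0.57, neither called. Among 13 analysed receptors of a list drawn up for those that read class I, 10 were at background in all groups. Against PBS, 3 of the 13 were higher at 4 d and 2 at 1 d. The inhibitory myeloid receptor genes *Lilrb4a* (3.49 and 4.70), whose described ligand is an integrin and not class I, and *Pirb* (fitted differences 2.18 and 2.45, with PBS at background) were called at both times, and *Klrd1*, which encodes CD94, at 4 d although it was at background in every group. *Cd8a* and *Cd8b1* were at background throughout.

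Some markers of other cells differed between the groups and others did not. T cell markers (6 of 8 listed were analysed) were at background in all groups and 0 were called, and their summed linear signal was 34.2 to 37.7 at LPS 4 d, 32.2 to 35.3 at LPS 1 d and 31.8 to 36.2 after PBS. Of 6 analysed NK markers, 4 (*Ncr1*, *Klrb1c*, *Gzma* and *Gzmb*) were also at background in all groups, whereas *Prf1* and *Eomes* exceeded it in at least 1 group. Only *Gzma* passed the test, at 4 d against PBS (limma adjusted p = 0.00645). Of 4 analysed B cell markers 3 were at background, and *Cd79b* was called higher at LPS 4 d than after PBS and than at LPS 1 d. The sum of 8 neutrophil markers was 272 to 471 at LPS 4 d, 1541 to 4230 at LPS 1 d and 77.9 to 164 after PBS. Of these markers, 1 was higher at 4 d and 5 at 1 d against PBS, and 3 were lower at LPS 4 d than at LPS 1 d. The sum of 9 monocyte and macrophage markers was 2138 to 2997 at LPS 4 d, 1521 to 1566 at LPS 1 d and 268 to 307 after PBS, with 8 higher at 4 d and 7 at 1 d against PBS. Between LPS 4 d and LPS 1 d these markers split, with 2 higher (*Ms4a7*, 4.36, and *Lyz2*, 1.47) and 2 lower, among them *Chil3* (-3.09). The sum of 8 microglia markers was 1633 to 1862 at LPS 4 d, 478 to 725 at LPS 1 d and 774 to 807 after PBS, with 4 higher at 4 d and 3 lower at 1 d against PBS, and 7 higher at LPS 4 d than at LPS 1 d. The sum of 8 endothelial markers was 1592 to 1722 at LPS 4 d, 1658 to 1727 at LPS 1 d and 1102 to 1166 after PBS, with 3 higher at 4 d and 2 at 1 d. From LPS 1 d to LPS 4 d, 2 of them were higher (*Tek*, 0.73, and *Cldn5*, 0.72) and 1 was lower (*Ly6c1*, -0.63). The sum of 7 choroid plexus markers was 1530 to 3027 at LPS 4 d, 3564 to 4948 at LPS 1 d and 3193 to 4426 after PBS. Of these, 1 (*Otx2*, -1.17) was lower at 4 d against PBS and 0 were called at 1 d. Between LPS 4 d and LPS 1 d, 2 were lower (*Aqp1*, -1.31, and *Otx2*, -1.09). Of 8 astrocyte markers 2 were higher at both times, *Gfap* by 2.50 at 4 d and 2.83 at 1 d and *Aqp4* by 0.88 and 0.65. Of 6 oligodendrocyte markers 2 (*Opalin*, -1.15, and *Cnp*, -0.63) were lower at 1 d against PBS, and both were higher at LPS 4 d than at LPS 1 d. The part of these cells in the differences above was not tested. Neuron and striatal neuron markers were above background in all groups with 0 called.

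Among 1305 other genes that differed across the groups, those whose values over the 9 arrays were most like the mean of the standardised values of the 7 genes were *Ifitm3* (Pearson r = 0.998), *Apod* and *Trim30a* (0.997 each), and *Irf1* and *Tnfrsf1a* (0.994 each). *Ifitm3* was 1.93 higher than PBS at 4 d, 3.4 higher at 1 d and differed by -1.47 between LPS 4 d and LPS 1 d, and all 5 were called higher at both times and lower at 4 d than at 1 d. They were picked by this likeness, so their values are a description.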

How the data were processed

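Each array measured RNA pooled from 3 mice, and p values measure the spread between such pools. The deposited values are log2 expression per probe set, which the authors made by RMA in Affymetrix Expression Console (background correction, quantile normalisation and summary over probes; no version is stated). Scanner output was not analysed. Of 45141 rows, 104 control entries were left out and 45037 probe sets tested. Of these, 28898 carry 1 gene symbol in the platform annotation, 551 several and 15588 none; 28689 of the first were matched by Entrez identifier, which changed 0 symbols. A linear model with 1 mean per group was fitted to the 9 arrays with limma 3.58.1 in R 4.3.3 (6 residual and 3.02 prior degrees of freedom), with Benjamini-Hochberg adjustment, and was tested on simulated data. The thresholds follow the study's methods (adjusted p under 0.05, fold change of at least 1.5). The genes named are all members, up to 4 called genes with the largest difference per list and contrast, and the 5 genes most like the members. Markers are given mostly as counts and sums of linear signal. The members and lists were chosen with earlier results of these data known. Promoter windows are those of RefSeq (GRCm38.p6), given for 6 of the 10 members, and motifs were searched on both strands in Python 3.11.15. Alternatives were intensity-trended, ordinary and 2-group fits, 2 other normalisations, a filter on dim probe sets, other fold thresholds, other probe set rules, adjustment over genes, the replicate number as a block and each array left out. No label gives a slide or scan date. A comparison of protein sequences was not run.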

Additional observations from a re-analysis of the deposited data

Results flagged for a closer look

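The difference between LPS 4 d and LPS 1 d was tested by limma. With PBS collected at 4 d alone, a change in the response to LPS and the time since surgery cannot be told apart in it. Expression was lower at LPS 4 d than at LPS 1 d for *H2-T23* (-1.27), *H2-T10* (-0.68), *Tapbp* (-0.64) and *Nlrc5* (-1.37), and among the regulators for *Irf9* (-1.10), *Stat2* (-0.97) and *Irf1* (-0.67), all on the log2 scale. It was higher at LPS 4 d for the class II genes *H2-Eb1* (2.33), *H2-Aa* (1.94), *H2-Ab1* (1.41), *Ifi30* (1.27) and *Cd74* (1.18), for the class I-like genes *Fcgrt* (0.97) and *Hfe* (0.93), and for *Ifngr1* (0.63). Groups of 3 arrays are too small for a test of single outlying arrays.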

How the results depend on the processing

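With all arrays kept, 6 of 7 genes were higher at 1 d under every alternative run, and 6 passed across the 3 groups under each except the mean of all probe sets of a gene (7). At 4 d against PBS the count was 3 with a fold change of at least 2 and 4 with ordinary tests. It was 5 with either other normalisation or the mean of all probe sets. Between LPS 4 d and LPS 1 d the count was 2 with a fold change of at least 2 and 2 with ordinary tests. It was 3 with the 2 groups alone or the mean of all probe sets. With 1 array left out, the counts ranged from 6 to 6 across the groups, 3 to 6 at 4 d, 6 to 7 at 1 d and 2 to 4 between the times. *H2-D1* and *H2-K1* kept their calls against PBS throughout. The 4 d difference of *Tapbpl*, which was never called, turned to -0.03 with the mean of all its probe sets and ranged from -0.05 to 0.29 over all alternatives; without LPS 4 d replicate 3 it was -0.000525. *H2-T10* at 4 d was 0.58 and fell under the required fold after a second quantile normalisation or median centring. The call of *H2-T23* at 4 d was lost with ordinary tests (adjusted p = 0.0586) or the mean of its probe sets (0.49, limma adjusted p = 0.0693). *Nlrc5* lost its calls at 4 d and between the times with ordinary tests (adjusted p = 0.0752 and 0.0877). *Tapbp* lost its call between the times with ordinary tests (adjusted p = 0.121), the 2 groups alone (0.0803) or the mean of its probe sets (-0.35, 0.0905). The causes were not tested. Over all probe sets, 1163 were higher at 4 d, 1064 higher at 1 d, 383 lower between the times and 2354 different across the groups, against 777, 801, 171 and 1780 with ordinary tests, and 1336, 1217, 509 and 4155 with an intensity trend. With a fold change of at least 2 the first 3 of these counts were 721, 729 and 238. Correlations between the deviations of same-numbered arrays lay from -0.035 to 0.022. Values this small gave no clear sign that the numbers pair samples, but with 3 arrays per group this check cannot exclude a pairing. With the replicate number as a block, 6 genes passed across the groups, 6 were higher at 4 d, 6 higher at 1 d and 4 lower between the times. No call of a member changed. With 3 pools per group, differences near the threshold are not settled.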
